A study of Marchantia polymorpha with 12 samples.

Results

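MpERF15 (Mp7g09350) is an AP2/ERF transcription factor gene of the liverwort Marchantia polymorpha and the gene named in the label of the mutant line Mperf15ko. It was followed here through every transcript listed under its identifier. The deposited tables held 1 such transcript, Mp7g09350.1, among 24751 transcripts of 19421 genes. Thalli, the flat leafless plant bodies of the liverwort, were compared in 4 groups of 3 libraries. These were intact Tak-1 thalli (the male laboratory accession), Tak-1 thalli taken 1 h after wounding of the blades, and the same pair of treatments for Mperf15ko. All thalli were 14 days old, had been grown from gemmae, and each replicate pooled 12 plants. What kind of lesion Mperf15ko carries, and how many independent lines it stands for, is not stated in the labels. Since reads were counted along the entire transcript, they cannot show a lesion that keeps the RNA, and the groups are called as labelled.

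AP2/ERF proteins are plant transcription factors that bind DNA through an AP2 domain. Members of the ERF branch act in responses to ethylene, jasmonates, wounding and other stress, and some ERF genes of Arabidopsis are induced at cut sites and promote regeneration there. The title of the series places MpERF15 upstream of oxylipin synthesis, the route in which lipoxygenases and CYP74 enzymes oxidise fatty acids to jasmonate-like signals. Liverworts sense such a signal through the receptor COI1 and JAZ repressors, as flowering plants do.

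Libraries held 17.2 to 30.4 M estimated reads, and the 10 most abundant genes took 5.50% to 10.9% of them, most in wounded Tak-1 replicate 1. No replicates were the same library, since replicates of a group differed by a chi-square of 15.6 to 62.9 per gene. Thallus markers were present in every library: MpRBCS (a small subunit of Rubisco) lay between 332 and 603 TPM, and MpNOP1 (air chambers), MpSYP13A and MpGCAM1 (gemma cups) were all counted. The sperm protamine gene MpPRM was listed at 0 in 11 of 12 libraries, and MpDUO1, a regulator of the male germ line, reached at most 1.03 TPM. Of 154 genes whose identifiers mark the male V chromosome, 43 to 51 reached 1 TPM in each library.

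MpERF15 was low in intact thalli of both genotypes and far higher 1 h after wounding in both, by estimates of 17.9-fold in Tak-1 and 11.0-fold in Mperf15ko. In the Tak-1 controls it was counted with 59, 51 and 54 reads in replicates 1 to 3, which gave 1.50, 1.83 and 1.64 TPM (a level per transcript length, scaled to the same total in every library). In wounded Tak-1 it had 458, 1029 and 1087 reads, or 20.1, 34.7 and 34.6 TPM. The mean level was thus 1.66 ± 0.165 TPM (SD, n = 3) before and 29.8 ± 8.44 TPM after wounding in Tak-1. The lowest wounded library lay far above the highest control, and within the wounded group replicate 1 stood below the other two.

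The libraries labelled Mperf15ko also held MpERF15 reads. Their controls had 60, 92 and 46 reads, or 1.94, 3.40 and 1.68 TPM, and the wounded libraries had 383, 531 and 911 reads, or 17.1, 20.2 and 40.6 TPM. The mean was 2.34 ± 0.926 TPM in control and 26.0 ± 12.8 TPM in wounded Mperf15ko (SD, n = 3). Control and wounded libraries of this genotype did not overlap, while replicate 2 was high among its controls and replicate 3 high among its wounded libraries. The ranges of the genotypes overlapped within each treatment. In RNA from whole thalli, more cells that express MpERF15 and more of its RNA per cell cannot be told apart.

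**Figure D1:**
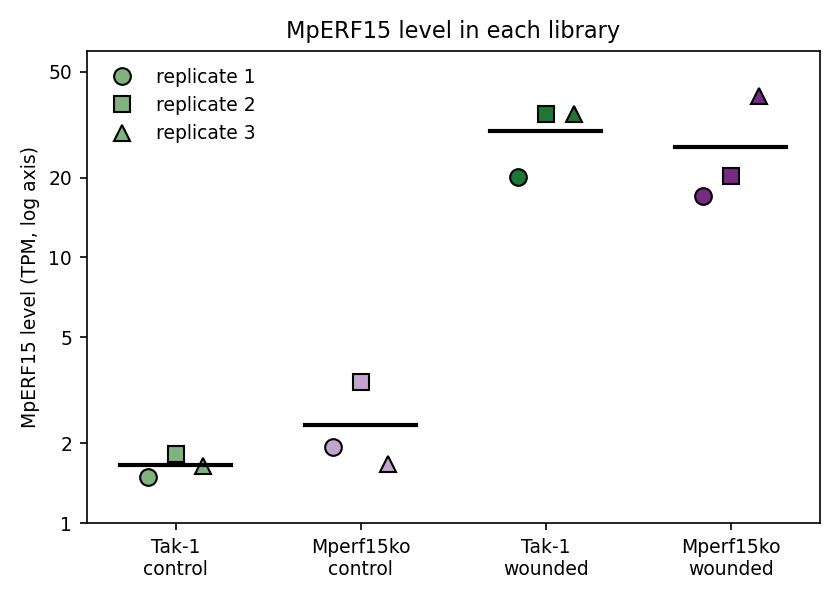
Level of MpERF15 in TPM (vertical log axis) in each of the 12 libraries, by group, with 1 symbol per replicate number and a bar at the group mean. All 6 wounded libraries lie above all 6 controls, and the genotypes overlap in both treatments, with Mperf15ko from 1.68 to 3.40 TPM in controls and from 17.1 to 40.6 TPM after wounding.

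Salmon's estimate for MpERF15 was a whole number in 12 of 12 libraries, to within 0.001 reads, with no fractional share assigned from other transcripts. Its transcript was listed at 2013 bases with an effective length of 1812.57 bases in every file. Counting error was small beside the spread between wounded libraries. In reads per 1000000 estimated reads, MpERF15 had 25.8 in wounded Tak-1 replicate 1 (exact binomial 95% interval 23.5 to 28.2), against 44.2 (41.5 to 46.9) and 44.3 (41.7 to 47.0) in replicates 2 and 3. Wounded Mperf15ko had 22.2 (20.1 to 24.6), 26.4 (24.2 to 28.8) and 51.7 (48.4 to 55.2) in the same order. In the control Mperf15ko libraries the intervals were wide, at 2.55 (1.94 to 3.28), 4.45 (3.59 to 5.46) and 2.20 (1.61 to 2.93), but that of replicate 2 still lay above both others. The Tak-1 controls, at 1.94 (1.48 to 2.51), 2.41 (1.79 to 3.16) and 2.20 (1.65 to 2.87), had intervals that all overlapped. The intervals cover counting error only.

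Ranked by TPM among the 19421 genes of each library, MpERF15 moved from the lower part of the expression range to the upper part. It stood at ranks 12118, 11802 and 11885 in control Tak-1 and at 11510, 10562 and 11620 in control Mperf15ko. After wounding it stood at 5426, 3807 and 3842 in Tak-1 and at 5980, 5459 and 3417 in Mperf15ko. Between 37.6% and 45.6% of genes were lower than MpERF15 in the 6 control libraries, and between 69.2% and 82.4% in the 6 wounded ones. Ranks of control and wounded libraries did not overlap in either genotype, and those of the genotypes overlapped only after wounding.

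The wound response was tested in each genotype with edgeR's quasi-likelihood test over all 14246 genes that passed the filter on low counts, with a call at a p under 0.05 after Benjamini-Hochberg adjustment. In Tak-1, MpERF15 rose by 4.17 on the log2 scale (SE 0.374, edgeR adjusted p = 3.6e-06), which is 17.9-fold with a 95% interval of 10.1- to 31.8-fold. In Mperf15ko it rose by 3.46 (SE 0.364, edgeR adjusted p = 1.4e-05), or 11.0-fold (6.32- to 19.2-fold). The estimates stayed between 4.05 and 4.40 in Tak-1 and between 3.02 and 3.80 in Mperf15ko when any 1 of the 12 libraries was left out. By fold, MpERF15 was the 138th most raised gene of 14246 in Tak-1 and the 281st in Mperf15ko.

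A call alone says little here, because wounding changed the transcriptome widely. Of all genes tested, 46.2% were called in Tak-1 (23.4% higher, 22.8% lower) and 43.6% in Mperf15ko (23.5% higher, 20.1% lower). A rise of at least 8-fold was far less common, called for 2.19% of genes in Tak-1 and 2.51% in Mperf15ko, and MpERF15 was among them in both genotypes. The split of calls by direction depended on scaling: 50.7% of called genes were higher in Tak-1 and 53.8% in Mperf15ko with TMM, but 36.2% and 39.3% with upper quartile scaling, which moved the median of all genes by -0.133 and -0.118. The rise of MpERF15 was many times that shift. Of the 6 tissue markers 5 were tested, and 4 of them, MpGCAM1, MpDUO1, MpSYP13A and MpNOP1, also rose in both genotypes, by log2 fold changes of 2.48, 1.54, 0.89 and 0.55 in Tak-1 and of 3.16, 1.64, 0.98 and 0.40 in Mperf15ko. MpRBCS was not called (0.22 and 0.24), and MpPRM, at no more than 0.0470 TPM, was not tested. The part of these markers in the rise of MpERF15 was not tested.

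An exact permutation test on the levels alone gave a like answer. Over both genotypes, log2(TPM + 0.1) of MpERF15 was higher by 3.71 in wounded than in control libraries, in 6 of 6 wounded libraries. The 2-sided exact permutation p was 0.005, the smallest that the 400 arrangements of labels within genotype can give. Each genotype by itself, at 3 libraries against 3, could not go below 0.10 in such a test.

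Levels of MpERF15 in Mperf15ko were not separated from those in Tak-1. In control thalli MpERF15 was higher in Mperf15ko by 0.50 on the log2 scale (SE 0.418, edgeR adjusted p = 0.41), and the 95% interval ran from 0.746- to 2.67-fold. In wounded thalli it was lower by a fitted log2 fold change of -0.20 (SE 0.303, edgeR adjusted p = 0.66), with an interval of 0.546- to 1.38-fold. Among all genes tested, 28.1% were called between the genotypes in controls (13.6% higher and 14.6% lower in Mperf15ko) and 23.5% after wounding (11.8% higher and 11.7% lower). Over both treatments the difference in log2(TPM + 0.1) was 0.08, with a 2-sided exact permutation p of 0.685 over 400 arrangements. The intervals leave room for a change of more than 2-fold upwards in controls, so a miss of the threshold does not show equal levels. A loss of most MpERF15 reads in Mperf15ko lay outside both intervals.

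The wound responses of the genotypes were also compared directly. The rise of MpERF15 was smaller in Mperf15ko by a log2 difference of -0.70 (SE 0.516, edgeR adjusted p = 0.67), with a 95% interval of -1.84 to 0.43. This corresponds to a response 0.614 times that of Tak-1, with a range of 0.279 to 1.35 times. Of all genes tested, 1.07% were called in this comparison (0.4% higher and 0.667% lower). The estimate ran from -1.17 to -0.39 as single libraries were left out and was not called in any of these fits.

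**Figure D2:**
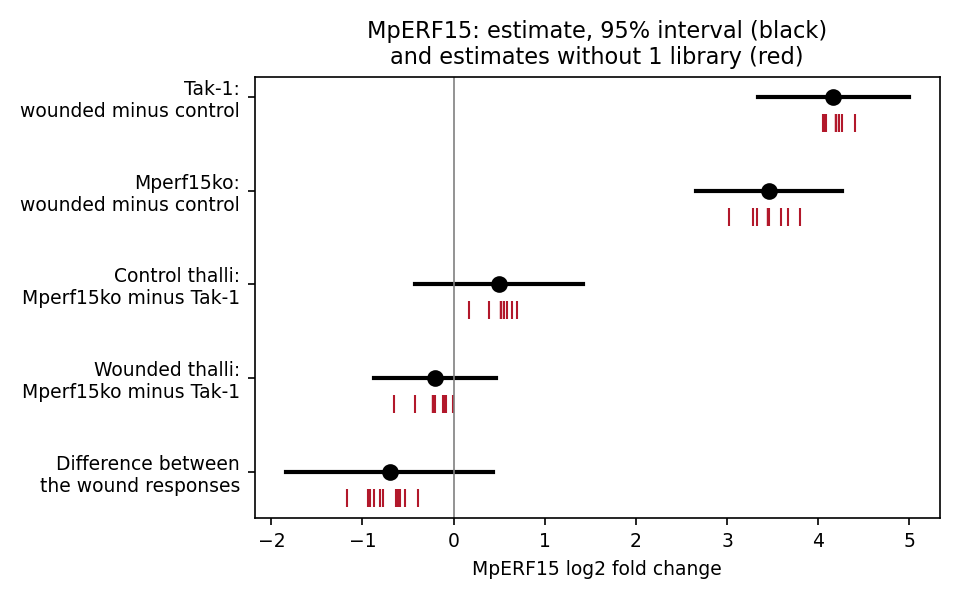
Fitted log2 fold change of MpERF15 (horizontal axis) in the 5 comparisons, with its 95% interval in black and, in red, the estimates after leaving out each of the 12 libraries in turn. The intervals of both wound responses, 3.34 to 4.99 in Tak-1 and 2.66 to 4.26 in Mperf15ko, lie well above 0, and the other 3 intervals include 0.

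Replicates differed more in MpERF15 than in most genes of like abundance. The highest library exceeded the lowest by 1.22 times in control Tak-1, 2.02 times in control Mperf15ko, 1.73 times in wounded Tak-1 and 2.38 times in wounded Mperf15ko (TPM). As an SD of log2 CPM (counts scaled for library size with TMM factors) these spreads were 0.190, 0.511, 0.416 and 0.599. Among 2343 genes with an average log2 CPM within 0.5 of that of MpERF15, the spread stood at percentile 67.7 in control Tak-1, 97.8 in control Mperf15ko, 98.4 in wounded Tak-1 and 98.3 in wounded Mperf15ko. The average over all libraries is a poor match for a gene that moves this far. Genes were therefore also matched on their level within each group, a choice made after the values had been seen, which gave percentiles 22.2, 88.3, 98.9 and 99.4 in the same order. The wide spread was thus clearest after wounding. The fitted biological coefficient of variation was 0.276 for MpERF15 against a common value of 0.126.

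The deviations of single libraries were set beside those of other genes raised at least 8-fold by wounding, to see whether a library was high or low for the wound response in general. The set for each genotype was taken from the calls in the other genotype, 356 genes for Tak-1 libraries and 311 for Mperf15ko libraries, without MpERF15. This description was chosen after the values had been seen and carries no test. In wounded Tak-1 replicate 1, MpERF15 was 0.48 log2 units below its group mean while the median gene of the set deviated by -0.06. Only 5.06% of the set deviated further down. In wounded Mperf15ko replicate 3, MpERF15 was 0.68 above its group mean, the set's median deviation was 0.03, and 95.8% of the set deviated less far up. In wounded Mperf15ko replicate 1 both were low, MpERF15 at -0.45 and the set at -0.17, the largest shift of the set in any wounded library. In wounded Mperf15ko replicate 2 MpERF15 was at -0.23 and the set at 0.13. In control Mperf15ko replicate 2 both were high, MpERF15 at 0.58 and the set at 0.18. A single gene scatters more than a median over many, so these values describe the libraries and do not separate MpERF15 from the set. The part of library-wide differences in the wound response was not tested.

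**Figure D3:**
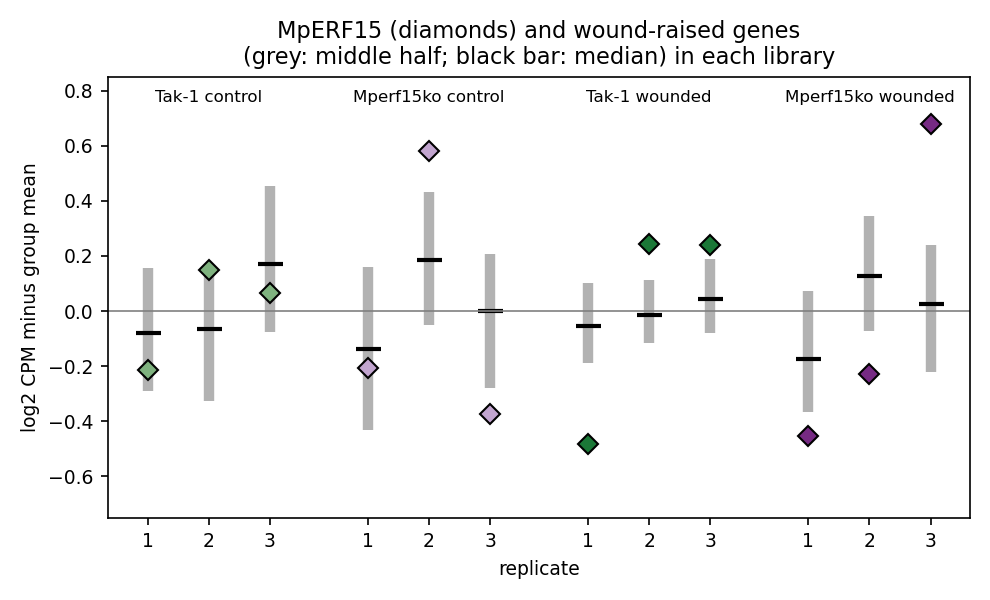
Deviation of log2 CPM from the group mean (vertical axis) in each library, for MpERF15 (diamonds) and for the genes raised at least 8-fold in the other genotype (grey bars for the interquartile range, black bar for the median). MpERF15 lies outside the grey bar in all 6 wounded libraries, from -0.48 in Tak-1 replicate 1 to 0.68 in Mperf15ko replicate 3.

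The AP2/ERF family was taken from gene symbols, which gave 30 members including MpERF15. Of these 22 were tested, and the other 8 were under 0.1 TPM in every library, 6 of them listed at 0 throughout. In Tak-1, 9 of the 22 rose after wounding, 5 fell and 8 were not called, with a median log2 fold change of 0.24 against -0.05 over all genes. In Mperf15ko, 9 rose, 6 fell and 7 were not called, with a median of 0.05 against -0.02. These 63.6% and 68.2% called compare with the 46.2% and 43.6% of all genes. The family counts include MpERF15 itself, chosen with earlier results known, and MpERF9, which passed the filter only through its wounded libraries. Shares without these members were not computed, so the comparison gives no result about the family. MpERF15 stood at place 3 of the 22 by fold rise in both genotypes.

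Only MpERF21 and MpERF9 rose by more. MpERF21 went from 0.113, 0.055 and 0.233 TPM in control Tak-1 to 44.0, 47.0 and 58.0 TPM after wounding, a log2 fold change of 8.51 (SE 0.71). These controls held only 6, 2 and 10 reads of MpERF21, so this fold change rests on very low control counts. In Mperf15ko MpERF21 started higher, at 0.272, 3.56 and 1.37 TPM (11, 130 and 50 reads), and reached 57.4, 73.8 and 76.1 TPM (5.34, SE 0.52). MpERF21 thus passed MpERF15 in every wounded library, although it lay below MpERF15 in 5 of the 6 controls. MpERF9 had only 1 to 6 reads in any control library and 43 to 204 after wounding. It passed the filter on low counts only through its wounded libraries, so its log2 fold changes of 4.19 in Tak-1 and 7.05 in Mperf15ko rest on very low control counts, and its level stayed at or below 5.71 TPM. In reads and in TPM the rise of MpERF15 was larger than that of MpERF9.

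The other members that rose in both genotypes did so by less. MpERF7 rose by 1.82 in Tak-1 and 2.12 in Mperf15ko on the log2 scale, MpERF1 by 1.67 and 0.64, MpERF8 by 1.35 and 1.22, MpAP2B3-2 by 1.09 and 1.17, and MpERF18 by 0.91 and 0.98. MpERF10 was called in Tak-1 alone (1.01, against 0.51) and MpERF11 in Mperf15ko alone (1.02, against 0.26), and neither was called in the comparison of the wound responses. For MpERF10 no call remained after leaving out Tak-1 control replicate 2 (0.99), control replicate 3 (0.82), wounded replicate 2 (0.72) or wounded replicate 3 (1.02), nor with upper quartile scaling (0.87). Members that fell in both were MpERF4, MpAP2B3-1, MpAP2L1, MpAP2L2 and MpERF14, with log2 fold changes between -0.49 and -1.48 in Tak-1 and between -0.51 and -1.16 in Mperf15ko. The call of MpAP2B3-1 in Tak-1 was lost without wounded replicate 1 (-0.33). MpERF12 was called lower only in Mperf15ko (-1.06, against -1.10 in Tak-1), a call lost in 7 of 20 alternatives. Among these were fits without control replicate 2 (-1.07) or 3 (-0.92) or wounded replicate 2 (-0.82) or 3 (-1.05) of that genotype. The MpERF12 call rested on few reads, 25, 28 and 33 in control and 15, 8 and 11 in wounded Mperf15ko.

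**Figure D4:**
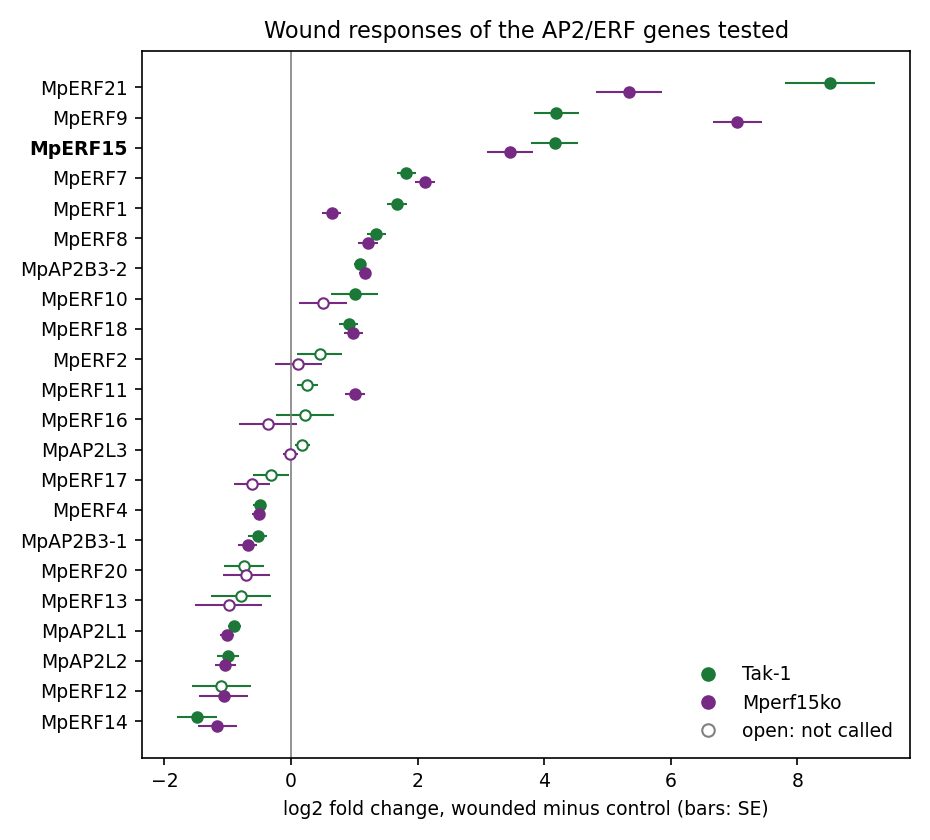
Log2 fold change after wounding (horizontal axis, bars for SE) of the 22 tested AP2/ERF genes in Tak-1 (green) and Mperf15ko (purple), with open circles where edgeR made no call. MpERF21, MpERF9 and MpERF15 stand apart from the rest in both genotypes, MpERF15 at 4.17 and 3.46.

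In level, MpERF15 changed from a minor to a major member of the family. It stood at places 14 to 17 of the 30 by TPM in the control libraries, at place 3 in all wounded Tak-1 libraries, and at places 6, 5 and 3 in wounded Mperf15ko replicates 1, 2 and 3. It held 1.27 ± 0.264% of the family's summed TPM in control Tak-1 and 10.9 ± 1.85% after wounding, and 1.47 ± 0.506% and 8.73 ± 3.24% in Mperf15ko (SD, n = 3). The family sum itself went from 133 to 268 TPM in Tak-1 and from 158 to 289 TPM in Mperf15ko.

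Around MpERF15 in the order of wounded Tak-1, MpERF1 had 71.8 ± 14.6 TPM and MpERF21 49.7 ± 7.37 TPM above it, and MpERF7 had 20.6 ± 1.57 TPM and MpAP2L1 16.6 ± 1.02 TPM below it. The libraries of MpERF21, at 44.0 TPM or more, did not overlap those of MpERF15, which reached 34.7 TPM. The 21.6 TPM of the highest MpERF7 library lay above the lowest MpERF15 library, so these neighbours were not separated by their spread, and the libraries of MpERF1 and MpERF21 overlapped as well. In wounded Mperf15ko the order by mean was MpERF21 (69.1 TPM), MpERF1 (51.8), MpERF7 (30.7), MpERF18 (27.1), MpERF15 (26.0) and MpAP2L1 (16.4). The range of MpERF15 there, 17.1 to 40.6 TPM, covered all libraries of MpERF7 and MpERF18.

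Between the genotypes, 5 of the 22 AP2/ERF genes were called in control thalli, 4 higher and 1 lower in Mperf15ko, and 8 in wounded thalli, 5 higher and 3 lower. These shares, 22.7% and 36.4%, compare with 28.1% and 23.5% of all genes. The control calls were MpERF1, MpERF12, MpERF18 and MpERF21 (higher) and MpERF20 (lower), named after their values were seen. MpERF20, also known as LAXR, is a regeneration factor of this liverwort. Several of these calls depended on single libraries. That of MpERF21 (log2 fold change 3.63) was lost without Tak-1 control replicate 1 (3.45) or 2 (3.35), that of MpERF1 (0.57) without Tak-1 control replicate 3 (0.46) or Mperf15ko control replicate 2 (0.52) or 3 (0.52), and that of MpERF12 (1.36) without Tak-1 control replicate 1 (1.25) or Mperf15ko control replicate 3 (1.23). The call of MpERF21 set only 6, 2 and 10 reads in control Tak-1 against 11, 130 and 50 in control Mperf15ko. MpERF12 had few reads throughout, with 14, 11 and 14 in control Tak-1 against 25, 28 and 33 in control Mperf15ko. After wounding it had 6, 6 and 3 reads against 15, 8 and 11. Its estimate was a whole number in only 1 of 12 libraries. The wounded calls were MpERF7, MpERF9, MpERF11, MpERF12 and MpERF18 (higher) and MpERF1, MpERF20 and MpAP2L3 (lower). Of these MpERF12 (1.40) was lost in 14 of 19 alternatives, 10 of them with 1 library left out (1.04 to 1.46), MpERF1 (-0.46) in 9 of 20, 6 of them with 1 library left out (-0.51 to -0.37), and MpERF7 (0.58) without wounded Tak-1 replicate 1 (0.52). MpERF20 and MpAP2L3 were not refitted one by one. MpERF18 was higher in Mperf15ko in both treatments (0.72 and 0.79) and kept these calls in all 20 alternatives fitted for single genes. MpERF9 (1.70) and MpERF11 (1.01) also kept their wounded calls in these 20 alternatives. In the comparison of the wound responses 1 member was called, MpERF1, with a smaller rise in Mperf15ko, and DESeq2 called 2.

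Genes were also ranked by how closely their pattern followed that of MpERF15, by Pearson's r of log2 CPM over the 12 libraries among 12857 genes with a mean of at least 1 CPM. The 8 most alike were Mp1g00240 (0.989), Mp2g10480 (0.989), Mp7g13890 (0.988), MpBHLH2 (0.987), Mp1g13950 (0.987), Mp5g02790 (0.987), Mp7g05190 (0.986) and Mp2g02780 (0.986). The next gene was at 0.985 and the 99th percentile of all genes at 0.973, so the list has no clear edge. Since MpERF15 rises with wounding, the measure selects genes that do, and their wound responses are given as a description only. Their log2 fold changes in Tak-1 ran from 0.69 (Mp7g13890) to 5.51 (Mp7g05190). The upper end rests on very low control counts, since Mp7g05190 had 0.25 and 0.42 CPM in control Tak-1 replicates 1 and 2. The points share libraries, depth and a large common wound step, and the correlations carry no test. By Spearman's rho 0 of the 8 were again among the top 8, and with TPM in place of CPM 4 were.

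Likeness beyond the wound step was measured after subtracting the mean of each group. The 8 highest were then Mp7g03590 (0.949), Mp6g18750 (0.929), Mp5g18780 (0.925), Mp1g05880 (0.918), MpABCG34 (0.900), Mp7g09520 (0.895), Mp1g23450 (0.892) and Mp6g12370 (0.874), against 0.725 at the 99th percentile of all genes. None of them was among the 8 found over the raw values, and Mp7g03590 fell after wounding in both genotypes (log2 fold change -0.43 and -0.28). Only 1 of the 8 stayed in the list without control Mperf15ko replicate 2, and likewise 1 without wounded Mperf15ko replicate 3, the libraries in which MpERF15 was highest for its group. Of the AP2/ERF genes MpAP2L3 followed MpERF15 most closely within groups (0.811, place 30 of all genes), followed by MpERF2 (0.501) and MpERF7 (0.499), and MpERF11 was lowest (-0.594).

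The genes next to MpERF15 on the chromosome were examined as well. Their order came from a reference assembly of a female accession, which also places MpERF15 on chromosome 7, and the build behind the deposited tables is not given in the sources used here. Of the 5 genes on each side 6 were tested. In Tak-1 2 rose and 2 fell after wounding, in Mperf15ko 3 rose and 1 fell, and between the genotypes 1 was higher and 2 lower in each treatment. Set against the 46.2%, 43.6%, 28.1% and 23.5% of all genes called in these comparisons, such counts over 6 genes say little about the locus. A pair of those that rose, Mp7g09360 and Mp7g09380, passed the filter on low counts only through their wounded libraries. No neighbour was called in the comparison of the wound responses by edgeR (2 at an unadjusted p under 0.05), 1 was by DESeq2 and 0 by limma.

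The adjacent gene Mp7g09340 differed far more between the genotypes than MpERF15 did. It had 167, 198 and 139 TPM in control Tak-1 and 9.53, 9.89 and 19.0 TPM in control Mperf15ko, groups that did not overlap (log2 fold change -3.72, SE 0.336, edgeR adjusted p = 6.1e-05). After wounding it had 39.4, 56.3 and 38.8 TPM in Tak-1 and 12.0, 8.49 and 20.5 TPM in Mperf15ko, again apart (-1.72, SE 0.331, edgeR adjusted p = 0.0050). It fell after wounding in Tak-1 by 1.91 (SE 0.303, edgeR adjusted p = 0.00042) and had a log2 fold change of 0.08 in Mperf15ko (edgeR adjusted p = 0.88). The difference between these responses was 1.99 (edgeR adjusted p = 0.084). The genotype and Tak-1 calls held in all 20 alternatives fitted for single genes, which did not include transcripts in place of genes.

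On the other side, Mp7g09360 and Mp7g09380 had almost no reads in controls and are described by their reads, since they could enter the test only where they were high. Mp7g09360 had 1, 0 and 1 reads in control Tak-1 and 44, 45 and 72 after wounding, and 3, 0 and 1 against 69, 77 and 66 in Mperf15ko. Mp7g09380 had 2, 2 and 0 reads against 44, 48 and 63 in Tak-1. In Mperf15ko it had 0 reads in all controls and 143, 96 and 105 after wounding, at least 136-fold higher against a floor of 3 reads over the group. Its wounded level was higher in Mperf15ko than in Tak-1 (log2 fold change 1.42, edgeR adjusted p = 0.0071). Both genes stayed below MpERF15, with mean wounded levels of 2.84 to 7.52 TPM.

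The other neighbours showed no common pattern. MpPOD149, named as a peroxidase, fell after wounding in Tak-1 and in Mperf15ko (-1.35 and -1.33). It was lower in Mperf15ko in controls (-0.91), a call lost without Tak-1 control replicate 3 (-0.72) or Mperf15ko control replicate 2 (-0.82). After wounding it was also lower there (-0.89), a call lost in 3 of 20 alternatives, among them without Tak-1 replicate 1 (-0.68) or Mperf15ko replicate 2 (-0.66). Mp7g09390 was called after wounding in Mperf15ko alone (0.31), a call lost in 6 of 20 alternatives. Among these were fits without control replicate 1 (0.20) or 2 (0.33) or wounded replicate 2 (0.21), and upper quartile scaling (0.19). Mp7g09410 was higher in control Mperf15ko (0.36, edgeR adjusted p = 0.0037). Mp7g09300, Mp7g09320, Mp7g09330 and Mp7g09370 had at most 4 reads in any library.

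**Figure D5:**
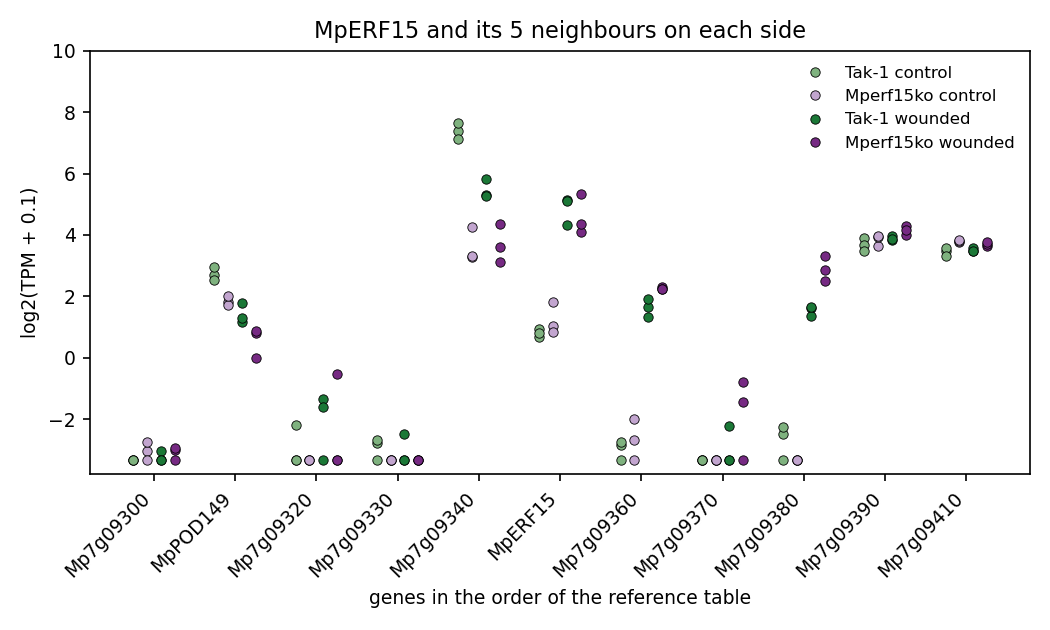
Level of MpERF15 and of the 5 genes on each side as log2(TPM + 0.1) in each of the 12 libraries, in the order of the reference table. MpERF15 rises in both genotypes, Mp7g09340 is separated by genotype, from 139 to 198 TPM in control Tak-1 against 9.53 to 19.0 TPM in control Mperf15ko, and Mp7g09360 and Mp7g09380 rise from almost no reads.

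Oxylipin genes, the pathway that the title links to MpERF15, numbered 22 by symbol, of which 21 were tested. In Tak-1 9 rose and 4 fell after wounding (median log2 fold change -0.03), and in Mperf15ko 8 rose and 5 fell (median 0.18). The share called, 61.9% in each genotype, compares with 46.2% and 43.6% of all genes. MpJAZ, the repressor gene, and MpCYP74N2, of the CYP74 enzymes, rose in both, as did the lipoxygenase genes MpLOX10, MpLOX8, MpLOX6, MpLOX4, MpLOX2 and MpLOX1, while MpLOX14 and MpLOX16 fell in both. Salmon's estimate was whole in 0 of 12 libraries for MpLOX14 and MpLOX16, 2 for MpLOX10, and 3 for MpLOX6 and MpLOX8. It was whole in 9 for MpLOX1 and in 12 for MpLOX2, MpLOX4, MpJAZ and MpCYP74N2. MpLOX6 had only 22, 2 and 16 reads in control Tak-1 and 15, 27 and 1 in control Mperf15ko. The call of MpCYP74N2 in Mperf15ko (0.67) was among the least firm, lost in 11 of 20 alternatives. Among these were fits without any 1 of 7 libraries, with values from 0.41 to 0.76, and upper quartile scaling (0.55). The Mperf15ko call of MpLOX6 (2.09) was lost in 5 of 20 alternatives. Among these were fits without control replicate 1 (2.04) or 3 (1.55) or wounded replicate 1 (1.94) or 2 (1.94) of that genotype. Of the oxylipin genes MpJAZ followed MpERF15 most closely over the 12 libraries (r = 0.978, place 61 of all genes), and within groups its r was 0.496. MpLOX2 reached 0.965 and 0.116.

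Between the genotypes, 1 oxylipin gene was higher and 7 were lower in control Mperf15ko (median -0.08), and 2 were higher and 7 lower in wounded Mperf15ko (median -0.22). These 38.1% and 42.9% called compare with 28.1% and 23.5% of all genes. Among those that rose with MpERF15 in both genotypes, MpLOX1 was lower in Mperf15ko by log2 fold changes of -1.82 in controls and -2.06 after wounding, MpLOX4 by -1.29 and -1.02, and MpLOX8 by -0.96 and -1.13. The control call of MpLOX8 was lost in 3 of 20 alternatives, among them without Tak-1 control replicate 3 (-0.92) or Mperf15ko control replicate 3 (-0.69). Genes not called higher after wounding were also lower in Mperf15ko in both treatments. MpLOX11 was lower by -2.12 in controls and -1.71 after wounding, MpLOX5 by -0.88 and -1.05, and MpLOX14 by -0.59 and -0.46. MpLOX11 and MpLOX5 were not refitted one by one. MpLOX10 was called lower in controls only (-0.62, against -0.42), and MpCYP74N2 after wounding only (-0.25 in controls, -0.73 after wounding), a call lost in 11 of 20 alternatives. MpLOX2 went the other way after wounding, with -0.06 in controls, not called, and 0.36 in wounded thalli, called higher but lost without any 1 of 5 wounded libraries (0.27 to 0.39). MpLOX7 was higher in wounded Mperf15ko by more (1.08, edgeR adjusted p = 0.0036), with 0.56 in controls, not called. MpCOI1 was called higher in controls only (0.31, edgeR adjusted p = 0.019, against 0.12 after wounding). MpLOX7 and MpCOI1 were not refitted one by one. MpLOX6 (0.38 and -0.33) and MpJAZ (0.05 and 0.18) were called in neither, nor was MpERF15 itself. No oxylipin gene was called in the comparison of the wound responses by edgeR (1 at an unadjusted p under 0.05), DESeq2 or limma, each with 0 calls. The fold rise of MpLOX1 was 2.65 on the log2 scale in Tak-1 and 2.42 in Mperf15ko, a difference of -0.23 (SE 0.22, edgeR adjusted p = 0.76).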

How the data were processed

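RNA-seq libraries were made with a stranded mRNA kit, per the labels' protocols. The authors deposited 1 Salmon table per library, giving for each transcript its length, effective length, TPM and estimated count, per the file headers. The deposited TPM values have the same total in every library. CASAVA and Salmon 0.7.2 are the tools in the submitters' processing notes. Build, annotation and settings were not given in the sources used here. Between 32.4% and 37.3% of the transcripts of a library had a fractional estimate.

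Estimated counts were summed per gene and rounded. edgeR 4.0.16 (R 4.3.3) fitted the 4 groups as cell means over 12 libraries (TMM, filterByExpr by group, glmQLFit robust, glmQLFTest), and adjusted p-values were taken over 14246 genes. Intervals came from the SE and the total degrees of freedom. The fit was tested on simulated counts. TPM was tested by exact permutation on log2(TPM + 0.1), and log2 CPM used a prior count of 2. Replicates are stated to be independent samples of 12 plants. DESeq2 1.42.0 and limma 3.58.1 served as alternatives, with other scalings, filters and features, and with each library left out.

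Gene symbols and gene order came from a RefSeq table of MpTak2_v7.1, in which 17386 of 19421 identifiers (89.5%) matched. The rule named AP2/ERF genes called in either wound response and those next to MpERF15 in level, 8 genes by each likeness measure, 5 neighbours on each side, and oxylipin genes called in both wound responses or in the comparison between them. MpERF15, the lists and these rules were chosen with earlier results of these data known. MpCBF5 met the symbol rule but was left out, since it names a pseudouridine synthase. Promoter and protein sequences were not analysed here.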

Additional observations from a re-analysis of the deposited data

Results flagged for a closer look

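MpERF1, an AP2/ERF gene that ranked above MpERF15 in wounded Tak-1, was singled out because its wound response differed between the genotypes by a test of the difference itself. It rose by 1.67 on the log2 scale in Tak-1 and by 0.64 in Mperf15ko, a difference of -1.03 (SE 0.218, edgeR adjusted p = 0.042, 3 libraries in each of the 4 groups). Its levels were 27.4, 23.0 and 17.1 TPM in control Tak-1 and 55.3, 77.0 and 83.1 TPM after wounding, against 27.4, 36.7 and 35.7 TPM and 49.9, 49.5 and 56.1 TPM in Mperf15ko. The call was lost in 11 of 19 alternatives, 9 of them with 1 library left out, while the difference stayed between -1.21 and -0.94. The same difference for MpERF15 was -0.70 and was not called.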

How the results depend on the processing

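MpERF15 kept its direction and its side of the threshold in all 5 comparisons under every alternative that could be run. Over both treatments its genotype difference in log2(TPM + 0.1) ran from -0.11 to 0.20 with 1 library left out. It changed sign without control Mperf15ko replicate 2 (-0.07), wounded Tak-1 replicate 1 (-0.05) or wounded Mperf15ko replicate 3 (-0.11). Of 2238 alternative fits for 112 results on single genes, 2106 kept their call, 132 lost it and 0 reversed. Only named genes already called in the main fit entered this tally, so no gain of a call could appear. Fits with transcripts in place of genes were not among these 2238. Counts called in either wound response never moved by over 1.5 times, but others often did. Between the wound responses, the count of all genes moved in 8 of 20 alternatives and that of AP2/ERF genes in 13 of 20. The AP2/ERF count moved in 7 of 21 between wounded genotypes and in 4 of 21 between control genotypes. With transcripts in place of genes, the AP2/ERF genes called were 2 between control genotypes, 4 between wounded genotypes and 0 between the wound responses, and neighbours between wounded genotypes 1. AP2/ERF genes called between wounded genotypes were 5 with no filter. All genes called between the wound responses were 472 with DESeq2 and 69 with limma, against 152. With transcripts in place of genes, 41 genes had a called transcript there. DESeq2 called 2 AP2/ERF genes and 1 neighbour there.

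With 1 library left out, 2565 to 4110 genes were called between control genotypes, 1832 to 3516 between wounded genotypes and 61 to 324 between the wound responses. In the same order AP2/ERF calls were 2 to 6, 4 to 7 and 0 to 2, oxylipin calls between control genotypes 5 to 9, and neighbours between the wound responses 0 to 1. By reads, the median rank of MpERF15 in control Tak-1 was 11682. Of the 8 genes most like MpERF15 over 12 libraries, Spearman's rho kept 0, TPM 4 and leaving out 1 library 3 to 8. Within groups the numbers were 4, 4 and 1 to 7. The spread percentile in control Tak-1 was 22.2 when matched within the group. The cause of these shifts was not tested.

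Replicate numbers did not pair the libraries: of 18 pairs with the same number, 4 had deviations correlated above 0.1, and 4 of 12 libraries correlated best with their own number. With the replicate block the log2 fold changes of MpERF15 were 4.12, 3.42, 0.49, -0.21 and -0.70 in the order of the report, and the calls over all genes 6224, 5920, 3619, 2926 and 130. AP2/ERF calls under the block were 4 between wounded genotypes and 0 between the wound responses. Control libraries held 46 to 92 MpERF15 reads and wounded ones 383 to 1087, so counting error is larger relative to the level in controls.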
